A study of Mus musculus with 12 samples.

Results

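A set of 6 genes that were low on the arrays labelled Foxp3Cre/+Lkb1f/f, and that are not among the usual markers of regulatory T (Treg) cells, were followed across all 4 genotypes: Prg4, Cpd, Ttc39c, Ctla2b, Ncmap and Rgs1. They were selected on their values in the Lkb1 comparison, so that comparison is given for them as a description without a test. The question asked was whether Treg cells lacking the TGF-β receptor gene Tgfbr2 had less of them too. Earlier results of these data were known when the genes were chosen, so the Tgfbr2 comparison may not be free of that choice either. All 6 genes were measured, each by the 1 transcript cluster, of 41345, that is annotated to it alone. Transcript clusters are the probe groups that the array summarizes into a value. RNA came from CD4+YFP+ Treg cells sorted from spleen and lymph nodes, with 3 arrays for each of Foxp3CreTgfbr2f/f, Foxp3Cre, Foxp3Cre/+Lkb1f/f and Foxp3Cre/+ mice.

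The genotypes Foxp3CreTgfbr2f/f and Foxp3Cre are labelled male, and Foxp3Cre/+Lkb1f/f and Foxp3Cre/+ are labelled female. All 4 carry the YFP-Cre fusion at Foxp3, the Treg master regulator gene, so the controls differ from the knockouts in the floxed alleles and not in the Cre. Because Foxp3 is X-linked, the heterozygous Foxp3Cre/+ females also hold Treg cells that use the intact allele and delete nothing, and these YFP-negative cells were not sorted, whereas all Treg cells of a Foxp3Cre male carry the Cre. The 2 comparisons share no array as labelled. The labels call the arrays biological replicates, but whether each holds 1 mouse or a pool, and the age of the mice, was not stated in the sources consulted.

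TGF-β binds a type II receptor, the product of Tgfbr2, which activates a type I receptor kinase. That kinase phosphorylates Smad2 and Smad3, which enter the nucleus and bind short DNA elements in target genes. In T cells this pathway is known for inducing the integrin CD103 (Itgae) and for supporting residence in tissues. Lkb1, the product of Stk11, is a serine/threonine kinase upstream of the AMP-activated protein kinase family.

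A set of 4 arrays stood apart from the other 8, and each genotype held 1 of them: replicate 1 of Foxp3CreTgfbr2f/f and replicate 3 of Foxp3Cre, Foxp3Cre/+Lkb1f/f and Foxp3Cre/+. Their median log2 value was 6.30 to 6.33, against 5.48 to 5.60 on the other 8, so each value below is the log2 value minus the median of its own array. The same 4 arrays went against their labelled sex by Xist and Eif2s3y, transcripts of the inactive X and of the Y chromosome, while the other 8 matched it. Skil, a Smad corepressor gene induced by TGF-β and singled out here after its values were seen, lay at 3.57, 0.63 and 0.45 on Foxp3CreTgfbr2f/f replicates 1, 2 and 3, against 3.55, 3.08 and 3.52 on Foxp3Cre replicates 1, 2 and 3. On Foxp3Cre/+Lkb1f/f replicates 1, 2 and 3 it lay at 3.72, 3.05 and 0.24, against 3.53, 3.47 and 3.22 on Foxp3Cre/+. Thus the array labelled Foxp3CreTgfbr2f/f replicate 1 had Skil at the level of its controls, and the array labelled Foxp3Cre/+Lkb1f/f replicate 3 had it low. Tgfbr2 itself lay at 3.55, 2.51 and 2.31 on the Foxp3CreTgfbr2f/f arrays, against 3.04, 2.71 and 3.48 on the Foxp3Cre arrays, so replicate 1 of the knockout was the highest of all 12 arrays. Stk11 lay at 2.68, 2.33 and 3.27 on the Foxp3Cre/+Lkb1f/f arrays, against 2.96, 2.90 and 3.15 on the Foxp3Cre/+ arrays, so replicate 3 of the knockout lay above its controls. Crosswise, Tgfbr2 lay at 3.14, 2.38 and 2.71 on the Foxp3Cre/+Lkb1f/f arrays, against 2.78, 2.78 and 3.25 on the Foxp3Cre/+ arrays. Stk11 lay at 2.78, 3.03 and 3.33 on the Foxp3CreTgfbr2f/f arrays, against 3.18, 2.80 and 3.05 on the Foxp3Cre arrays. Where the probes lie relative to the deleted exons was not stated in the sources consulted, so these values cannot settle the labels. Within this set the 2 arrays labelled as the Lkb1 comparison carried male and the 2 labelled as the Tgfbr2 comparison female transcripts, and whether labels were exchanged between the comparisons was not tested. The differences over all arrays, those between the higher-intensity arrays and the Lkb1 values that chose the genes rest in part on these labels. Arrays were kept in their labelled groups, and differences are also given for the 2 and 2 arrays of each comparison whose sex transcripts match their label. The defining Treg marker Foxp3 lay 5.59 to 5.88 above the array median on all 12 arrays.

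All 6 genes were lower in Foxp3CreTgfbr2f/f than in Foxp3Cre Treg cells, each by more than 1.5-fold. Over all transcript clusters 0.692% were lower by that much. In 4 of the 6 (Prg4, Cpd, Ncmap and Rgs1) every Foxp3CreTgfbr2f/f array lay below every Foxp3Cre array, against 2.13% of all clusters, and 0.227% of all clusters met both conditions. On the 2 and 2 arrays with matching sex transcripts all 6 genes met both, against 1.17% of all clusters. None of the 6 passed limma's Benjamini-Hochberg adjusted p under 0.05, as was so for all clusters (0% called lower). At an unadjusted p under 0.05 limma called 4 of the 6 genes, all lower, and 706 of the 41345 clusters in both directions. That is fewer clusters than a threshold of 0.05 would be expected to pass by chance. The median difference of the 6 was -0.88 on the log2 scale, beside a median of 0.01 over all clusters.

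**Figure D1:**
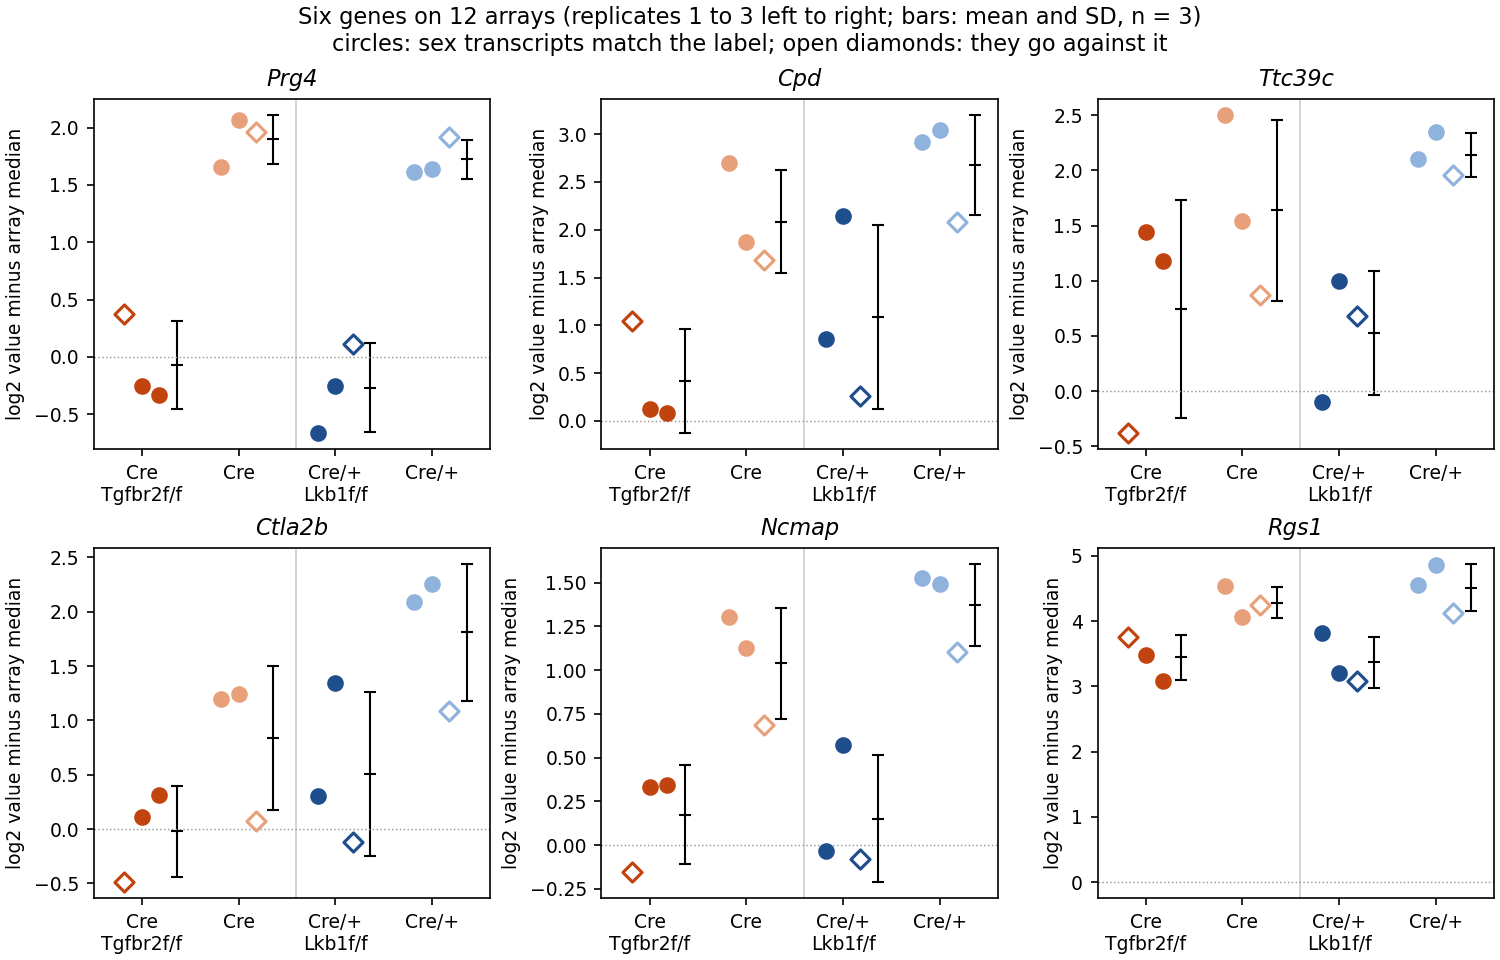
The log2 value minus the array median is plotted for each gene on the 12 arrays, with knockout arrays left of their controls within the Tgfbr2 comparison (orange) and the Lkb1 comparison (blue). Circles are the 8 arrays whose sex transcripts match their label, open diamonds the 4 that go against it, and bars give the mean and SD of 3 arrays; Prg4 is low on all 6 knockout arrays, whereas Ttc39c and Ctla2b overlap between Foxp3CreTgfbr2f/f and Foxp3Cre.

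Prg4 showed the widest gap between the genotypes. It encodes lubricin, a secreted mucin-like proteoglycan that lubricates joint cartilage and can bind CD44 and Toll-like receptors. Its values (transcript cluster 17227892) were 0.37, -0.26 and -0.33 on the Foxp3CreTgfbr2f/f arrays, replicates 1, 2 and 3, against 1.66, 2.07 and 1.96 on the Foxp3Cre arrays. The lowest control array lay 1.28 above the highest knockout array. The difference of -1.97 (standard error 0.23, n = 3 arrays per genotype) is 3.91-fold, with an unadjusted limma p of 6.02e-05, an adjusted p of 1.00 and a two-sided exact permutation p of 0.10, the smallest that 3 against 3 arrays allow. Only 3 of the 22180 genes with 1 symbol had a more negative difference. Without Foxp3CreTgfbr2f/f replicate 1 the limma adjusted p of Prg4 was 0.0911, the lowest of any of the 6 genes under any setting. In the Lkb1 comparison, which chose it, Prg4 lay at -0.67, -0.25 and 0.11 on the Foxp3Cre/+Lkb1f/f arrays, against 1.62, 1.64 and 1.92 on the Foxp3Cre/+ arrays. That is a difference of -1.99 (standard error 0.24), beside -1.97 for the Tgfbr2 comparison, so Prg4 was low on all 6 knockout arrays, including the 2 that go against their labelled sex.

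Ctla2b was lower on average, but its groups overlapped. The gene and its neighbour Ctla2a encode small mouse proteins that resemble the propeptide of cysteine cathepsins, and Ctla2a is known to inhibit cathepsin L. Ctla2b (transcript cluster 17293348) had values of -0.49, 0.11 and 0.32 on the Foxp3CreTgfbr2f/f arrays, against 1.20, 1.24 and 0.07 on the Foxp3Cre arrays. The low control is replicate 3, one of the arrays that go against their labelled sex, and among the 2 and 2 matching arrays the groups did not overlap. The difference was -0.86 (standard error 0.36, unadjusted limma p = 0.0504, two-sided exact permutation p = 0.30, n = 3 arrays per genotype) over all arrays, -1.01 on the matching arrays and -0.56 between the higher-intensity arrays. The Lkb1 comparison gave values of 0.31, 1.34 and -0.12 on the Foxp3Cre/+Lkb1f/f arrays, against 2.09, 2.25 and 1.09 on the Foxp3Cre/+ arrays, where Foxp3Cre/+Lkb1f/f replicate 2 lay above Foxp3Cre/+ replicate 3. In both comparisons the array of the higher-intensity set was the lowest of its genotype.

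Ctla2a followed Ctla2b closely, with a Pearson r of 0.89 over the 12 arrays, and differed by -0.62 in the Tgfbr2 and by -0.78 in the Lkb1 comparison. The paralogs are near copies whose probes may share transcripts, so how far the array separates them is uncertain. Their promoters also resemble each other: of 228 aligned bases in the 250 before the transcription start, 208 were identical (91.2%). They are shown because the pair moved together; capitals mark the Smad box CAGAC on either strand (GTCTG on the other) and the AP-1 motif TGANTCA, and both sequences are from RefSeq (GRCm38.p6, minus strand, 5′ to 3′), at chr13:60897448-60897697 for Ctla2b and chr13:60936626-60936875 for Ctla2a.
Ctla2b: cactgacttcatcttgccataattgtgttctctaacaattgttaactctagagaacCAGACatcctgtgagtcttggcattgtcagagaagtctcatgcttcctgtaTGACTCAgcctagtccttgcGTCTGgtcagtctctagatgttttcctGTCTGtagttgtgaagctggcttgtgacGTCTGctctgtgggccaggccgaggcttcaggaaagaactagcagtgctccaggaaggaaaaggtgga
Ctla2a: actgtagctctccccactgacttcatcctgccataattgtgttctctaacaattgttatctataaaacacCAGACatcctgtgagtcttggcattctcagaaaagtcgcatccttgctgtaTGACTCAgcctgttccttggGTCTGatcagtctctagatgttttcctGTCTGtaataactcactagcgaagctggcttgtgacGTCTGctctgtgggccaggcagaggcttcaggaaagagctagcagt
Each window held 4 Smad boxes and 1 AP-1 motif. At least 1 Smad box was found in 42.2% and an AP-1 motif in 6.75% of 32851 RefSeq windows of this length. The share of windows with 4 or more Smad boxes was not computed, so that count has no background here. Being near copies, the windows of the pair are not separate observations. The Ctla2b window starts from one annotated transcript and lies 487 bases within the widest extent of the gene. A match is a description of letters and was not tied to binding.

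Cpd gave the second-largest difference of the 6. It encodes carboxypeptidase D, a membrane-bound metallocarboxypeptidase of the trans-Golgi network that trims basic residues from the C termini of processed proteins. Its values (transcript cluster 17266157) were 1.05, 0.13 and 0.08 on the Foxp3CreTgfbr2f/f arrays, against 2.70, 1.88 and 1.68 on the Foxp3Cre arrays. The groups did not overlap, and the 2 knockout arrays with matching sex transcripts were the lower ones. The difference of -1.67 (standard error 0.36) is 3.18-fold (unadjusted limma p = 0.0024, adjusted p = 1.00, two-sided exact permutation p = 0.10, n = 3 arrays per genotype). It was -2.19 on the matching arrays and -0.63 between the higher-intensity arrays. In the Lkb1 comparison the lowest value stood on the array that goes against its labelled sex: Cpd lay at 0.85, 2.14 and 0.26 on the Foxp3Cre/+Lkb1f/f arrays, against 2.92, 3.04 and 2.08 on the Foxp3Cre/+ arrays. There the groups overlapped, since Foxp3Cre/+Lkb1f/f replicate 2 lay above Foxp3Cre/+ replicate 3. Cpd was thus lowest on the 3 arrays of the series with Skil under 1, and the part of the labels in this was not tested. The 250 bases before its start are shown for contrast with the Ctla2 pair, with none of these motifs in capitals because none was found (RefSeq, GRCm38.p6, minus strand, chr11:76847009-76847258).
Cpd: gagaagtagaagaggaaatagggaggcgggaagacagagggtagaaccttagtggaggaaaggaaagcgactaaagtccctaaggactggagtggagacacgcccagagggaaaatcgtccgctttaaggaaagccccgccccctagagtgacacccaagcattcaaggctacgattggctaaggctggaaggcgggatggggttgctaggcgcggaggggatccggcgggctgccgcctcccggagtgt
The window held 14 CpG dinucleotides, against 3 in that of Ctla2b. It held 1 GCGTG, the core to which the aryl hydrocarbon receptor binds, counted on both strands and present in 28.2% of all windows.

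Rgs1 was lower by less than these but with little spread. It encodes a GTPase-activating protein for G protein alpha subunits that dampens chemokine receptor signalling, and it is a usual marker of tissue-resident T cells. Rgs1 (transcript cluster 17227780) lay at 3.76, 3.49 and 3.09 on the Foxp3CreTgfbr2f/f arrays, against 4.54, 4.07 and 4.24 on the Foxp3Cre arrays. The groups did not overlap, with a difference of -0.84 (standard error 0.22, unadjusted limma p = 0.00654, adjusted p = 1.00, two-sided exact permutation p = 0.10, n = 3 arrays per genotype). On the matching arrays it was -1.02 and between the higher-intensity arrays -0.48. The arrays of the Lkb1 comparison gave 3.82, 3.21 and 3.08 on the Foxp3Cre/+Lkb1f/f arrays, against 4.56, 4.86 and 4.13 on the Foxp3Cre/+ arrays, a difference of -1.15 (standard error 0.28).

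Ttc39c was the gene with the weakest evidence in the Tgfbr2 comparison. Its product carries tetratricopeptide repeats, which form contacts between proteins. Ttc39c (transcript cluster 17348570) had values of -0.38, 1.44 and 1.18 on the Foxp3CreTgfbr2f/f arrays, against 2.50, 1.54 and 0.87 on the Foxp3Cre arrays. The groups overlapped, and 1 knockout array, replicate 1, lay well below the rest. The difference was -0.89 (standard error 0.58, unadjusted limma p = 0.166, two-sided exact permutation p = 0.40, n = 3 arrays per genotype), and without Foxp3CreTgfbr2f/f replicate 1 it was -0.33, without Foxp3Cre replicate 1 -0.46. Among the 2 and 2 matching arrays it was -0.71 and the groups did not overlap. In the Lkb1 arrays the groups did not overlap, with -0.10, 0.99 and 0.68 on the Foxp3Cre/+Lkb1f/f arrays, against 2.10, 2.35 and 1.96 on the Foxp3Cre/+ arrays (difference -1.61, standard error 0.30).

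Ncmap had nearly the same difference in both sets of arrays. It encodes the noncompact myelin-associated protein of peripheral nerve sheaths. Ncmap (transcript cluster 17431429) lay at -0.15, 0.33 and 0.35 on the Foxp3CreTgfbr2f/f arrays, against 1.30, 1.12 and 0.69 on the Foxp3Cre arrays. The groups did not overlap, and the difference was -0.86 (standard error 0.22, unadjusted limma p = 0.00602, adjusted p = 1.00, two-sided exact permutation p = 0.10, n = 3 arrays per genotype), -0.88 on the matching arrays and -0.84 between the higher-intensity arrays. Its values in the Lkb1 comparison were -0.03, 0.57 and -0.08 on the Foxp3Cre/+Lkb1f/f arrays, against 1.52, 1.49 and 1.10 on the Foxp3Cre/+ arrays, a difference of -1.22 (standard error 0.24). Its promoter is shown as that of a gene whose difference was alike in the 2 array sets (RefSeq, GRCm38.p6, minus strand, chr4:135398228-135398477), with its 1 Smad box in capitals.
Ncmap: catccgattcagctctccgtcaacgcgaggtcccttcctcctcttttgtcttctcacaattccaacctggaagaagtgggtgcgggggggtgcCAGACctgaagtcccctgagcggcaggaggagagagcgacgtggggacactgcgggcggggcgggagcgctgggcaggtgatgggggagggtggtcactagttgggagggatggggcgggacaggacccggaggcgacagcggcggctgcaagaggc
With 17 CpG dinucleotides and 66.0% G and C the window resembled that of Cpd (58.4%) more than that of Ctla2b (48.0%).

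**Figure D2:**
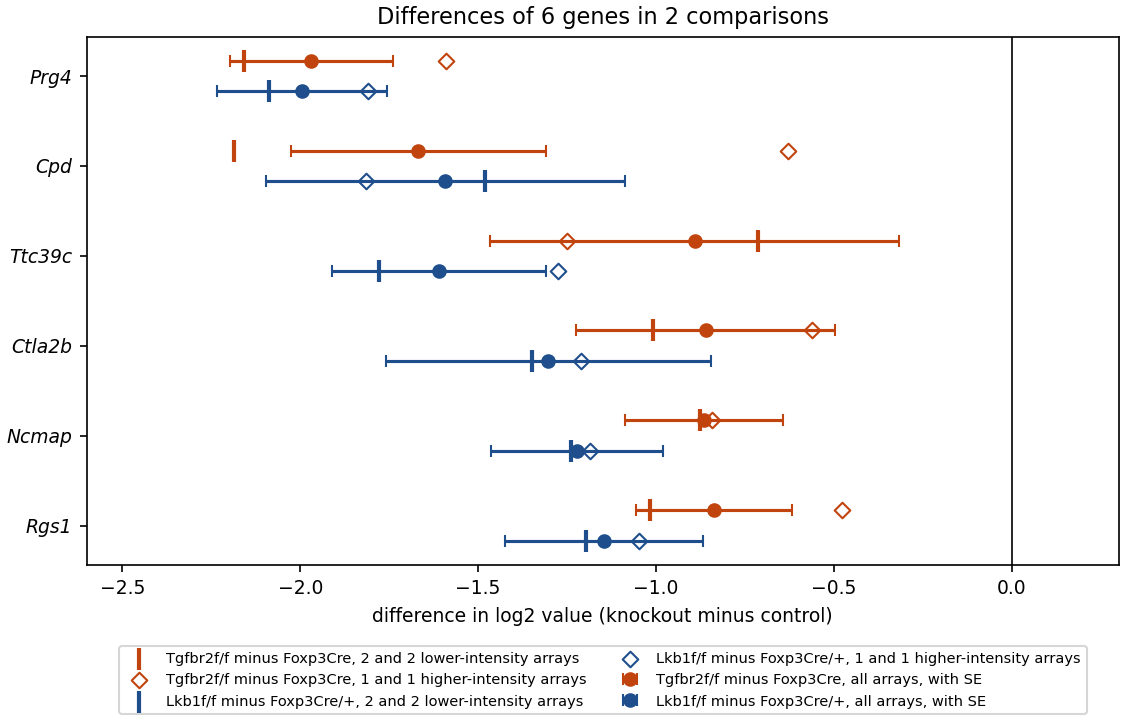
Differences in log2 value, knockout minus control, are plotted for the 6 genes in the Tgfbr2 comparison (orange) and the Lkb1 comparison (blue). Filled circles with bars give the difference over all 6 arrays and its standard error, vertical ticks that of the 2 and 2 lower-intensity arrays and open diamonds that of the 1 and 1 higher-intensity arrays; all lie below 0, and for Cpd in the Tgfbr2 comparison the ticks and diamonds lie far apart (-2.19 and -0.63).

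Side by side, the 2 comparisons gave differences of -1.97 and -1.99 for Prg4 and of -1.67 and -1.59 for Cpd (Tgfbr2, then Lkb1). For Ttc39c, Ctla2b, Ncmap and Rgs1 the Tgfbr2 difference was between 0.554 and 0.730 of the Lkb1 difference. Whether the effects differ was not tested, because the Lkb1 values chose the genes and so may overstate that side. In the Lkb1 comparison 2.2% of all clusters were lower by 1.5-fold or more, and 0.493% (204 clusters) were also without overlap, 4 of the 6 genes among them. These counts describe the selection.

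The 204 clusters give the setting for the question asked, since they too were low in Foxp3Cre/+Lkb1f/f Treg cells. In the Tgfbr2 comparison 124 of the 204 (60.8%) lay below 0, with a median of -0.17, beside 46.9% of all clusters. Of the 204, 20.6% were lower by 1.5-fold or more and 12.7% (26 clusters) were also without overlap in the Tgfbr2 comparison. The same 26 are 27.7% of the 94 clusters that were so in the Tgfbr2 comparison. On the 2 and 2 matching arrays 57 of 1126 clusters were so in both comparisons (5.06%). Among the 204, Prg4 had the third most negative Tgfbr2 difference and Ttc39c, Ncmap and Rgs1 ranked 18, 22 and 24. The 4 genes were among the lower of the 204 in the Lkb1 comparison too, where the median was -0.82. Of the 32 other clusters at or below the Lkb1 difference of Rgs1, 16 were lower by 1.5-fold or more in the Tgfbr2 comparison, and of the 12 with 1 symbol 6, Itgae, Apol9b, Ahr, Axl, Il18r1 and Crmp1, names chosen after their values were seen. Being low in both comparisons was therefore not particular to the genes described.

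**Figure D3:**
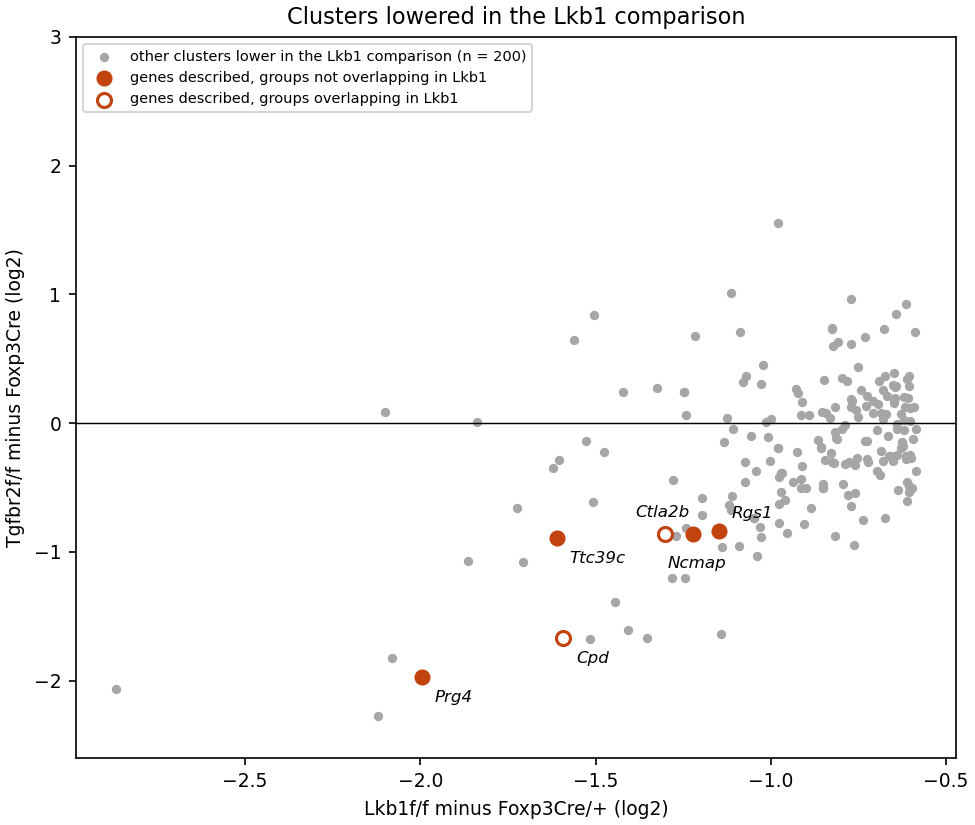
Each point is a transcript cluster that was lower by 1.5-fold or more without overlap in the Lkb1 comparison (horizontal axis, log2 difference of Foxp3Cre/+Lkb1f/f minus Foxp3Cre/+), set against its difference in the Tgfbr2 comparison (vertical axis, Foxp3CreTgfbr2f/f minus Foxp3Cre). The 6 genes are in orange, with Cpd and Ctla2b open because their groups overlapped in the Lkb1 comparison; most grey points lie near 0 on the vertical axis and the 6 genes lie between -0.84 and -1.97.

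The 6 genes did not share 1 pattern across the arrays. Over the 12 arrays the 15 pairs of genes had Pearson r values of 0.51 to 0.90 (median 0.79), which includes the difference between knockout and control that chose them. For deviations from the genotype means the values ran between -0.51 and 0.95 (median 0.10), with the highest for Ctla2b and Ncmap. These are descriptions over arrays that share an intensity set, and carry no test. Cpd was lowest on Foxp3CreTgfbr2f/f replicates 3 and 2 and Foxp3Cre/+Lkb1f/f replicate 3, whereas Ttc39c was lowest on replicate 1 of both knockouts.

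The genes most like each of the 6 were sought by Pearson r over the 12 arrays among 10790 genes with a mean above the array median. These r values include the difference between knockout and control, also on the Lkb1 arrays that chose the 6 genes. The search therefore favours genes low in both knockouts, and each gene it named was lower in both comparisons. Cpd was most like Ahr, the aryl hydrocarbon receptor gene (r = 0.96), then Ccr6, a chemokine receptor gene (0.92), and Aqp3, an aquaglyceroporin gene (0.90). Ttc39c was most like Il1r2, the decoy interleukin-1 receptor gene (0.94), Itgae (0.93) and Gcnt1, a glycosyltransferase gene (0.93). Ncmap was most like Itgae (0.95), Cldnd1 (0.95) and Fgl2, a secreted fibrinogen-like protein gene (0.91). Prg4 was most like Fam3c (0.91), Il18r1, an interleukin-18 receptor gene (0.90), and Cldnd1 (0.87). Ctla2b was most like Ctla2a, Il4 and Fam20a (0.88 to 0.89), and Rgs1 most like Rnf149 (0.93), Acvr2a, an activin receptor gene, and Irak3, a brake on Toll-like receptor signalling (both 0.88). Itgae, which stood near both Ttc39c and Ncmap, lay at 0.93, 2.50 and 1.96 on the Foxp3CreTgfbr2f/f arrays, against 4.54, 3.81 and 3.23 on the Foxp3Cre arrays. Ahr lay at 0.99, 0.23 and 0.45 on the Foxp3CreTgfbr2f/f arrays, against 2.88, 1.94 and 1.89 on the Foxp3Cre arrays. Among the Foxp3CreTgfbr2f/f arrays, replicate 1 was the lowest for Itgae and Ttc39c and the highest for Ahr and Cpd.

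**Figure D4:**
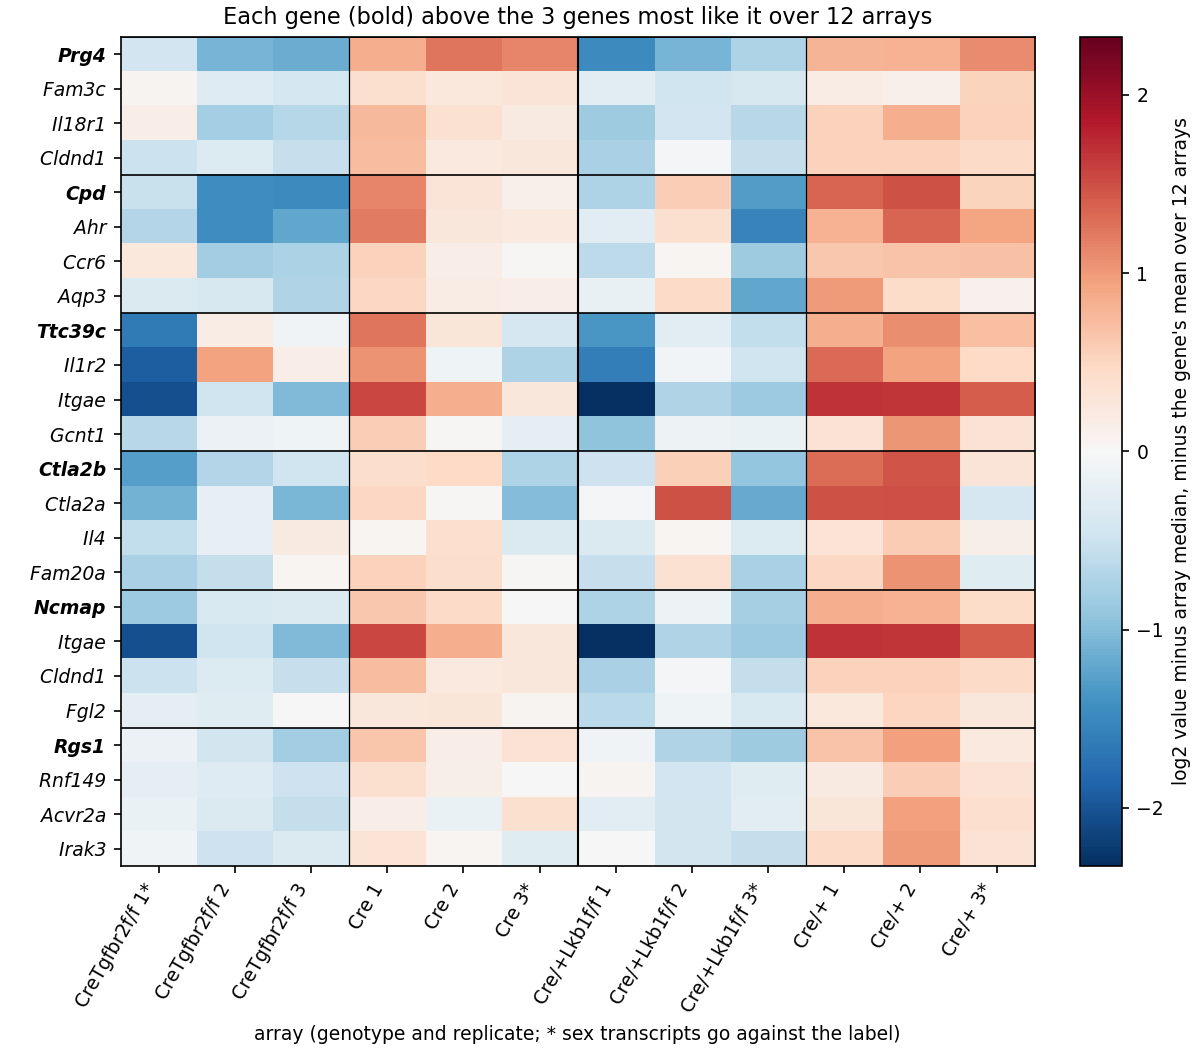
Rows are the 6 genes (bold), each above the 3 genes most like it, and columns are the 12 arrays in the order Foxp3CreTgfbr2f/f, Foxp3Cre, Foxp3Cre/+Lkb1f/f and Foxp3Cre/+, replicates 1 to 3, with asterisks on the 4 arrays that go against their labelled sex. Colour gives the log2 value minus the array median and minus the mean of the gene over the 12 arrays; the Cpd row is darkest blue on Foxp3CreTgfbr2f/f replicates 2 and 3 and Foxp3Cre/+Lkb1f/f replicate 3, and the Ttc39c row on replicate 1 of both knockouts.

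In the Tgfbr2 comparison the gene families of the 6 genes, with these genes counted in, were split in direction. None of their list members passed limma's adjusted p under 0.05 in the Tgfbr2 comparison. Of 21 Rgs genes 12 were lower and 9 higher, with a median of -0.02. Besides Rgs1, Rgs16 differed by -1.47 without overlap, with 1.19, 0.75 and 0.00 on the Foxp3CreTgfbr2f/f arrays, against 2.58, 1.72 and 2.05 on the Foxp3Cre arrays. Of 14 M14 metallocarboxypeptidase genes, the family of Cpd, 9 were lower and 5 higher (median -0.03), and after Cpd the largest difference was that of Cpe, the prohormone-processing enzyme, at -0.26. Of the 12 Ctla2 and cysteine cathepsin genes 6 were lower and 6 higher (median 0.04), with Ctsw, a cathepsin of cytotoxic lymphocytes, at 3.98, 1.19 and 1.11 on the Foxp3CreTgfbr2f/f arrays, against 3.86, 4.11 and 3.91 on the Foxp3Cre arrays. In the Lkb1 comparison Ctsw lay at 3.91, 3.46 and 0.97 on the Foxp3Cre/+Lkb1f/f arrays, against 4.02, 3.55 and 4.04 on the Foxp3Cre/+ arrays. It was thus low on the same 3 arrays as Skil. Of the 4 Ttc39 genes 2 were lower in the Tgfbr2 comparison, and of 13 genes for proteoglycans and lubricin receptors 6 were lower (medians 0.00 and 0.01). The Lkb1 comparison was less evenly split in these last 3 lists. There 11 of 12 Ctla2 and cathepsin genes were lower, 4 of 4 Ttc39 genes and 11 of 13 proteoglycan and lubricin receptor genes. Their medians were -0.48, -0.28 and -0.08. Among Rgs genes 10 of 21 were lower there, and among M14 genes 8 of 14.

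Genes known to be high in tissue-resident T cells, a list that includes Rgs1, were lower more often than not. In the Tgfbr2 comparison 11 of 15 were lower (median -0.42) and in the Lkb1 comparison 14 of 15 (median -0.53), beside 46.9% and 53.1% of all clusters. Itgae, Ahr and Xcl1, a chemokine gene, differed by -2.06, -1.68 and -0.66 in the Tgfbr2 comparison without overlap. Of 8 genes known to be low in such cells 5 were lower in the Tgfbr2 comparison (median -0.09). Among them was Klf2, a factor that drives the egress receptor S1pr1, at -0.49 with overlap. In the Lkb1 comparison 2 of these 8 genes were lower and 6 higher (median 0.12). Rgs1 and several of these genes were known from earlier results of these data, so the counts are a description.

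Because lubricin, Ncmap and the Ctla2 genes are also known from other cells, markers of those cells were set beside them. Of 9 fibroblast and stroma markers 5 were lower in the Tgfbr2 comparison, with a mean level over the list of -0.36 to -0.27 on the Foxp3CreTgfbr2f/f arrays, against -0.41 to -0.23 on the Foxp3Cre arrays. Of 7 markers of myelinating glia 2 were lower, with a mean level of 0.53 to 0.75 on the Foxp3CreTgfbr2f/f arrays, against 0.53 to 0.77 on the Foxp3Cre arrays. Of 8 endothelial markers 5 were lower, with a mean level of -0.03 to 0.13 on the Foxp3CreTgfbr2f/f arrays, against -0.04 to 0.09 on the Foxp3Cre arrays. The list ranges of the 2 genotypes overlapped in all 3 cases. Of 16 macrophage markers 5 were lower in the Tgfbr2 comparison (median 0.12), with a mean level of -0.15 to 0.30 on the Foxp3CreTgfbr2f/f arrays, against -0.26 to 0.23 on the Foxp3Cre arrays.

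In the Lkb1 comparison, by contrast, 15 of 16 macrophage markers were lower (median -0.94). Their mean level was 0.47 to 1.34 on the Foxp3Cre/+Lkb1f/f arrays, against 0.31 to 3.46 on the Foxp3Cre/+ arrays, with the highest on Foxp3Cre/+ replicate 2. Without that array the differences of the 6 genes in the Lkb1 comparison were -2.04 for Prg4, -1.41 for Cpd, -1.50 for Ttc39c, -1.08 for Ctla2b, -1.16 for Ncmap and -0.98 for Rgs1. Markers of B cells also differed between these arrays, with 9 of 9 lower (median -0.37). Their mean level was -0.64, -0.59 and 0.78 on the Foxp3Cre/+Lkb1f/f arrays, against -0.46, -0.28 and 1.57 on the Foxp3Cre/+ arrays, so it was high on replicate 3 of both genotypes. Without these 2 arrays the median difference of the B cell markers was 0.03 and that of the 6 genes -1.42, beside -1.45 over all 6 arrays. On the arrays that remain, however, the macrophage markers differed more, with a median of -1.48. The part of macrophage and B cell RNA in the Lkb1 values was not tested. In the Tgfbr2 comparison 4 of 9 B cell, 3 of 7 natural killer cell, 6 of 7 dendritic cell, 2 of 4 erythroid and platelet and 2 of 11 Treg and T cell markers were lower, with medians between -0.07 and 0.11. In bulk RNA, fewer cells that hold a transcript and less of it per cell cannot be told apart.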

How the data were processed

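The authors hybridized amplified RNA of sorted CD4+YFP+ Treg cells to 12 Affymetrix Mouse Genome 2.0 arrays and processed them with Agilent Genespring; the deposited values are log2 signals of 41345 transcript clusters, with no statement of the summarization or normalization in the sources consulted. The number of arrays limits the precision. Samples were grouped by labelled genotype. Of the clusters 23521 had 1 gene symbol in the platform annotation, 1820 had several and 16004 none. Each array was centred on its median. Foxp3CreTgfbr2f/f was compared with Foxp3Cre by limma 3.58.1 (R 4.3.3), fitting all clusters with lmFit and eBayes without a covariate or a filter, with Benjamini-Hochberg adjustment and a threshold of 0.05, and by two-sided exact permutation tests. P-values measure the spread between arrays, which may be technical in part. Gene members, 16 gene lists and the naming rule were chosen with earlier results of these data known. The rule named all 6 genes, the 3 genes most like each and, per list, genes at 1.5-fold or more without overlap (at most 4) or the largest difference. On simulated arrays of the Tgfbr2 comparison with 41345 clusters, limma recovered 73% of 100 clusters shifted by -2 and 18% of 100 shifted by -1. When only the 2 and 2 lower-intensity arrays were simulated, it recovered 39% and 0%. Sequences are from RefSeq GRCm38.p6, which had promoter windows for 3 of the 6 genes. Alternatives were other scalings, blocks, priors, array weights, a level filter, all 12 arrays in one model, the methods' t-test, the intensity sets and leaving out each array.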

Additional observations from a re-analysis of the deposited data

How the results depend on the processing

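All 102 values of the 6 genes in the Tgfbr2 comparison under the other settings lay below 0, but many of them could not differ. The replicate and intensity set blocks, the methods' t-test and the trend and robust prior leave each difference as it was. So do the model of all 12 arrays and the filter on level (Prg4 at -1.97 in each). Only the other scalings, array weights, the intensity sets and leaving out arrays could change a difference. No setting gave an adjusted p under 0.05 for any transcript cluster by limma or by the methods' t-test (902 clusters at an unadjusted p under 0.05). Between the higher-intensity arrays alone the differences were -1.59 for Prg4, -0.63 for Cpd and -0.48 for Rgs1. The number of clusters at an unadjusted limma p under 0.05, 706 over all 6 arrays, was 130 on the values as deposited, 408 with all 12 arrays in one model, 391 with the filter on level, 2097 with the intensity set as a block, 2196 with array weights and 2227 on the lower-intensity arrays alone, a test added after the data were seen. With single arrays left out it was 506 to 1628, the highest without Foxp3CreTgfbr2f/f replicate 1. The cause was not tested. The replicate block gave 495 such clusters and 0 by adjusted p, and left the 6 differences as they were. Deviations of same-numbered arrays correlated at -0.52, 0.23 and -0.57, and Foxp3CreTgfbr2f/f replicate 1 correlated best with Foxp3Cre replicate 3, of the same intensity set (0.72). Because the higher-intensity array has a different number in each of these genotypes, the values cannot show whether the numbers pair the arrays. In the Lkb1 comparison, which was not tested for these genes, same-numbered arrays correlated at 0.39, 0.30 and 0.74, the last the pair of higher-intensity arrays, and the replicate block gave 1483 clusters at an unadjusted p under 0.05, against 462 without it, and 0 by adjusted p. Each gene has 1 transcript cluster among those with 1 symbol, so no other such row could be tried. Clusters with several symbols or none were not searched for these genes. With 3 arrays per genotype limma recovered 18% of simulated shifts of -1 and 73% of simulated shifts of -2. The simulated noise was independent between clusters and arrays, and 100 clusters were shifted by each amount. On the real arrays 1 per genotype stood apart by intensity and sex transcripts, and the number of changed clusters is unknown. The simulated shares may therefore not carry over to them. Why Prg4, with a difference of -1.97, Rgs1 and Ncmap were not called was not tested.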
